A study of Homo sapiens with 4 samples.

Results

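Circular RNAs (circRNAs) whose 2 ends lie between 10 and 50 kb apart on the genome were studied in 4 liver cancer lines. A circRNA was taken into the class when it had at least 1 read in any line, exactly 1 host gene, and a distance from 10 kb to under 50 kb between the positions deposited for its back-splice. The rule gave 3241 circRNAs. They were picked from 7604 detected circRNAs with 1 host gene, or 8000 detected in all. The remaining circRNAs with 1 host gene comprised 1307 under 2 kb, 2496 from 2 to 10 kb and 560 of 50 kb or more. The choice used positions, not levels.

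A circRNA forms when the splicing machinery joins the end of an exon back to the start of an exon that lies upstream in the same transcript. The loop that results has no cap and no poly(A) tail, resists exonucleases and is usually long-lived. Introns between the joined ends are generally spliced out, so genomic span and the length of the RNA itself are different quantities. Complementary repeats in the introns on each side of a loop, and RNA-binding proteins that bridge them, are known to promote back-splicing. Many circRNAs come from genes of regulatory proteins that are also transcribed into ordinary mRNA, here called the host gene.

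The samples were established human cell lines, namely SK-Hep-1, Huh-7D12, HepG2 and Hep3B, each given in the labels as a liver cancer line with no treatment named. Each line gave 1 library of total RNA depleted of ribosomal RNA, with the poly(A) selection left out. With no replicates, no test, p-value or standard deviation can be given, and all intervals (95%) cover counting error only. Wherever 4 values follow each other they stand for Hep3B first, then HepG2, then Huh-7D12, and SK-Hep-1 last.

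The circRNA table held 6235 to 13515 reads across back-splices per library, and between 18581156 and 24409250 reads were counted on genes. Mitochondrial genes took 29.2%, 47.4%, 17.4% and 34.8% of the gene reads, and on a per-million scale of gene reads there were 529, 272, 727 and 370 back-splice reads. HepG2 and Huh-7D12 lay at opposite ends of both. Gene levels here and below are normalized reads on a per-million scale, not divided by gene length, and are compared between lines, not between genes. The label was checked with summed levels of 7 hepatocyte genes, which were 31814, 27292, 14286 and 40.1. In SK-Hep-1 the defining genes ALB, HNF4A and TTR were at 0 and the sum of 5 mesenchymal genes was 8756, against 14.2 to 786 in the other lines. Endothelial and leukocyte markers summed to at most 1.61 and 0.425 in any line.

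The junctions below are those of the most abundant circRNAs of the class and of several that differed most between lines, since the joined exon ends are what identifies each loop in the reads. In each, the last bases of the loop's final exon are in lower case and the first bases of its first exon are in capitals, 5′ to 3′ on the RNA strand. Positions are the first and last base of the loop on GRCh38, and the bases and exon numbers come from GENCODE 29 transcripts.
MAN1A2, exons 2 to 5, chr1:117402186-117420649, plus strand: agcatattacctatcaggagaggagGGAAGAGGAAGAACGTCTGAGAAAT
ABCD3, exons 2 to 10, chr1:94458607-94483239, plus strand: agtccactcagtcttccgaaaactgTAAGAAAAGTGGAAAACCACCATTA
ADAMTS6, exons 2 to 7, chr5:65451475-65473952, minus strand: agttcttattactagGTTAAAAAATGGCCA
CYP24A1, exons 3 to 11, chr20:54157169-54171670, minus strand: gataatacgcctcagGGAAGGGGAAGACTG
XPO1, exons 2 to 4, chr2:61522611-61533903, minus strand: ggaaccagtgcgaagTAATCTATGCCAGCA
ARHGAP5, exons 2 to 3, chr14:32090502-32117287, plus strand: ttattgaagatacagGAAGATGATCCCTAT
MPP6, exons 2 to 9, chr7:24623666-24668660, plus strand: gaactacggtgccatCAATGCAGCAAGTCT
ASH1L, exons 4 to 5, chr1:155438327-155459898, minus strand: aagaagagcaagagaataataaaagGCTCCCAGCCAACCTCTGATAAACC
ZNF638, exons 11 to 21, chr2:71396141-71418639, plus strand: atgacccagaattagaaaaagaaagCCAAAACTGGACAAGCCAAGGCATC
UBAP2, exons 9 to 12, chr9:33953285-33963791, minus strand: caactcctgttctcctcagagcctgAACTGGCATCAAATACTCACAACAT
CDK13, exons 2 to 5, chr7:39987599-40002031, plus strand: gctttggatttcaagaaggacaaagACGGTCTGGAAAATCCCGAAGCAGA
SUMF1, exons 2 to 5, chr3:3777725-3789074, minus strand: aaaaccaagcaaacgTGCCTGAGAAGAAAA
CNTLN, exons 7 to 12, chr9:17298190-17342444, plus strand: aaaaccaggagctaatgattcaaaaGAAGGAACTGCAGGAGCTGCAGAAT
LPAR1, exons 2 to 4, chr9:110941421-110973558, minus strand: tggtcattgtgcttgGTGGACGTCTGATTT
SMURF2, exons 2 to 5, chr17:64591084-64606640, minus strand: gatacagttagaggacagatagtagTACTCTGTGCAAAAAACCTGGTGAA
PROX1, exons 2 to 4, chr1:213996469-214011715, plus strand: gcaaatgactttgagGGTCCCGGGATTCTT

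By annotation, loops of 10 to 50 kb were mostly short exonic RNAs. Both ends lay at annotated exon boundaries in 2808 (86.6%), and neither end did in 5. A single annotated transcript held both ends in 2716 (83.8%), and the structure below refers to these. Exons inside the loop were filled in from that transcript and were not observed in the reads. The loop held a median of 5 exons (quartiles 4 and 7, at most 28), and none was a single exon. Its exons added up to a median of 696 bases, or 3.56% of the genomic span. In circRNAs under 2 kb, from 2 to 10 kb and of 50 kb or more, the exons made up 46.2%, 9.03% and 1.57% of the span. Most of the span was annotated intron, and the largest intron inside the loop had a median of 9782 bases.

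The introns that flank these loops were long as well. The intron before the loop had a median of 10926 bases (quartiles 4561 and 26112) and the intron after it 8212 bases (3777 and 16889). The corresponding medians were 4836 and 4512 bases for loops under 2 kb, and 18655 and 15056 bases for loops of 50 kb or more. Host genes were long in the same order, with a median of 70041, 83044, 112202 and 174893 bases from the shortest to the longest class. Genomic span, intron length and gene length are tied to each other, so these medians describe the class and are not independent of how it was chosen.

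Back-splicing into the second exon was common. In 1042 of the 2716 matched loops (38.4%, Wilson interval 36.6 to 40.2) the loop began at exon 2, against 28.6% under 2 kb, 26.4% from 2 to 10 kb and 46.7% at 50 kb or more. Only 10 loops began at exon 1 and 4 ended in the final exon of the transcript, exons that lack a splice site on the side a back-splice would need. Loops that began at exon 2 had a mean of 6.16 reads over all lines, and those that began at a later exon 3.92. The loops from exon 2 gave 51.7%, 49.2%, 50.4% and 43.8% of the matched reads. The interval of SK-Hep-1 (42.0 to 45.7) lay below those of the other 3 lines, whose lowest bound was 46.8. These intervals take reads as independent, although many reads share a loop. With 1 library per line, a difference of the line cannot be told from that of a library.

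By annotation, most loops in coding transcripts held coding sequence only. Of 2644 loops in coding transcripts, 2127 (80.4%) lay wholly inside the coding region. In 795 of these (37.4%) the spliced length was a multiple of 3, next to 38.1%, 34.1% and 37.9% in the other span classes. Host genes were protein-coding for 3179 circRNAs (98.1%). Loops of 2 exons numbered 204 and had a mean of 6.58 reads, loops of 3 to 5 exons 1274 with 5.19 reads, loops of 6 to 9 exons 927 with 4.28 reads, and loops of 10 or more exons 311 with 3.57 reads. Reads per loop thus went down with exon number, while spans within the class did not order the reads: circRNAs of 10 to 20, 20 to 30, 30 to 40 and 40 to 50 kb had means of 4.54, 4.90, 4.08 and 4.48 reads.

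**Figure D1:**
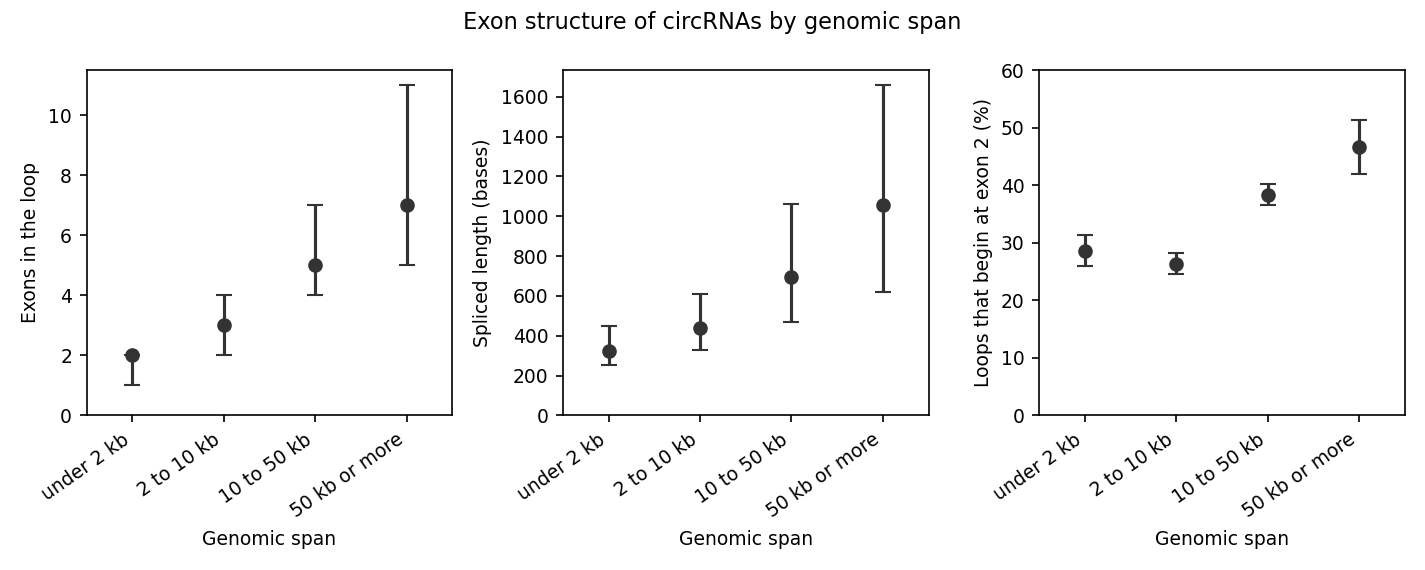
Exon structure of circRNAs by genomic span, with inner exons taken from annotated transcripts. Points are the median number of exons in the loop (left) and the median spliced length in bases (middle), with bars from the lower to the upper quartile, and the percentage of loops that begin at exon 2 with its 95% Wilson interval (right). Loops of 10 to 50 kb sit at 5 exons, 696 bases and 38.4%, between the shorter and the longest class in each panel.

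The class gave more back-splice reads than any other span class in 3 of the 4 lines. Its circRNAs had 4693, 1851, 5132 and 3106 reads. Among reads of circRNAs with 1 host gene these were 38.6% (exact binomial interval 37.8 to 39.5), 31.2% (30.02 to 32.4), 40.1% (39.3 to 41.0) and 41.8% (40.7 to 43.0). HepG2 stood below the other 3 lines by more than counting error, with reads taken as independent. Its largest class was that of 2 to 10 kb with 40.6%, against 32.2% to 34.5% elsewhere. With 1 library per line, a difference between lines and a difference between libraries cannot be told apart.

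Within the class, HepG2 also leaned to shorter spans. Loops of 10 to 20 kb gave 54.8% of its reads and 45.8% to 48.4% in the other lines, and loops of 30 to 40 kb gave 9.40% against 12.9% to 16.8%. HepG2 had the fewest back-splice reads and the highest mitochondrial share of the 4 libraries, and the part of either in these shares was not tested. The share of detected circRNAs was also computed at equal depth: at 6235 back-splice reads, the class was expected to make up 41.7%, 36.3%, 42.6% and 43.9% of the circRNAs detected. As deposited, 1571, 829, 1654 and 1154 circRNAs of the class were detected, which is 41.7%, 36.3%, 42.6% and 44.0%.

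**Figure D2:**
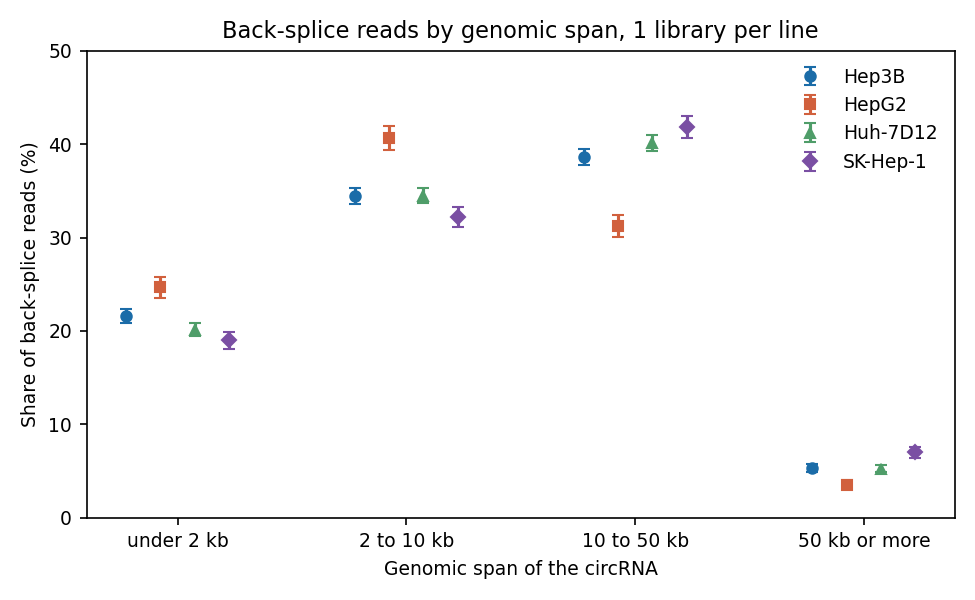
Share of back-splice reads by genomic span in each line. Each point is 1 library, the vertical axis is the percentage of reads from circRNAs with 1 host gene, and bars are exact 95% binomial intervals that cover counting error only. At 10 to 50 kb HepG2 sits at 31.2% and the other lines between 38.6% and 41.8%, while at 2 to 10 kb HepG2 is the highest with 40.6%.

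Individual circRNAs of the class were rare molecules. The median was 2 reads over all 4 libraries and the mean 4.56, while loops under 2 kb had a mean of 6.18 and loops from 2 to 10 kb 5.37. At least 10 reads in all were found for 258 circRNAs (7.96%), and at least 50 for 24. The 10 most abundant gave 6.01% of the reads of the class and the 100 most abundant 27.1%. No single circRNA gave more than 115 reads, so that no loop dominated the class.

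Most circRNAs of the class were found in 1 line. Of the 3241 circRNAs, 1991 (61.4%) were found in 1 line only, 737 in 2, 309 in 3 and 204 in all 4. The last are 6.29% (Wilson interval 5.51 to 7.18), beside 10.4% (8.86 to 12.2) under 2 kb, 8.09% (7.09 to 9.23) from 2 to 10 kb and 2.86% (1.77 to 4.59) at 50 kb or more. Among circRNAs with 10 to 29 reads in all, the percentage found in all lines was 52.3 in this class and 62.1, 55.1 and 42.9 in the others from short to long. With 4 to 9 reads it was 7.25 beside 9.64, 7.72 and 3.97, and with 30 or more it was 79.7 beside 78.0, 95.6 and 66.7. A circRNA absent from a library may have been missed at this depth, since 29.6%, 49.2%, 22.9% and 33.3% of those detected per line rested on 1 read.

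The 12 circRNAs with the highest mean level are described next, by what their host proteins do. Each was counted on its own back-splice, so their reads can be compared directly. Folds between lines use normalized reads, that is, reads multiplied by the factor the authors applied to each library. In bulk RNA, a larger share of cells that make a loop and more loops per cell cannot be told apart.

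Enzymes and transporters of membranes and metabolism led the list. MAN1A2 encodes a Golgi mannosidase that trims N-glycans, and its exon 2 to 5 loop had 19, 13, 41 and 42 reads. Normalized, SK-Hep-1 lay 3.34-fold (1.90 to 6.08) above Hep3B, whereas the gene differed 1.43-fold between these lines (56.2, 73.2, 76.5 and 80.1). ABCD3 encodes a transporter of the peroxisome membrane, and its loop of exons 2 to 10 had 20, 36, 49 and 0 reads. The gene was at 117, 112, 162 and 33.8, so SK-Hep-1 was lowest for both. Against the nearest line, Hep3B, the loop was at least 4.41-fold lower in SK-Hep-1 with 3 reads put for 0, and the gene 3.46-fold lower.

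CYP24A1 encodes the mitochondrial enzyme that breaks down active vitamin D. Its loop of exons 3 to 11 had 5, 68, 0 and 0 reads, and HepG2 lay 21.3-fold (8.69 to 67.7) above Hep3B. Gene levels were 0.558, 94.7, 0.170 and 0.0528, so loop and gene were both highest in HepG2. This single circRNA gave 68 of the 1851 reads of the class in HepG2.

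ADAMTS6 encodes a secreted metalloprotease. Its loop of exons 2 to 7 had 0, 1, 1 and 81 reads, the most reads of any member in 1 library. SK-Hep-1 lay 78.2-fold above HepG2, with an interval from 13.6 to 3126. The gene was at 2.06, 4.54, 5.52 and 138. As with CYP24A1, the line that held nearly all the loops was the line with the highest gene level.

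Regulators of kinase, GTPase and scaffold signalling formed the second group. PTK2, the focal adhesion kinase, gave an exon 3 to 5 loop (chr8:140864312-140890769, minus strand) with 34, 7, 37 and 29 reads. CDK13, a kinase of RNA polymerase II, gave an exon 2 to 5 loop with 49, 2, 16 and 10 reads. Hep3B lay 15.6-fold (4.11 to 133) above HepG2 for the CDK13 loop and 2.21-fold for the gene (108, 48.7, 56.2 and 60.7). HepG2 was the lowest line for both loops.

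ARHGAP5 encodes a GTPase-activating protein. Its 2-exon loop, the longest among these 12 by annotated exons with 4033 bases, had 24, 37, 18 and 1 reads. SK-Hep-1 lay 14.5-fold (2.29 to 604) below Huh-7D12 for the loop. For the gene (134, 321, 130 and 123) the same lines differed 1.06-fold. MPP6, a membrane-associated scaffold of the guanylate kinase family, gave a loop of exons 2 to 9 with 38, 2, 36 and 8 reads. Its gene was at 72.5, 13.2, 91.4 and 29.4, and loop and gene were both lowest in HepG2 and next lowest in SK-Hep-1.

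Nuclear and ubiquitin-related proteins made up the rest. XPO1, the main receptor for nuclear export of proteins, gave an exon 2 to 4 loop with 37, 10, 21 and 22 reads over gene levels of 247, 238, 262 and 224. The spread between its highest and lowest line was 2.36-fold (1.15 to 5.33), the smallest among the 12. ASH1L, a histone methyltransferase, gave a loop of exons 4 and 5 with 34, 5, 18 and 20 reads, in which HepG2 lay 4.34-fold (1.69 to 14.2) below Hep3B and the gene 2.27-fold below.

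UBAP2, a ubiquitin-associated protein, gave an exon 9 to 12 loop with 37, 19, 20 and 1 reads. SK-Hep-1 lay 16.1-fold (2.57 to 667) below Huh-7D12, while the gene was 1.33-fold lower. ZNF638, a nuclear zinc finger protein, gave a loop of exons 11 to 21 with 9, 4, 49 and 12 reads. Huh-7D12 lay 9.51-fold (3.49 to 36.3) above HepG2 for the loop and 1.23-fold for the gene (154, 131, 162 and 155). Both are loops whose spread between lines was wider than that of the gene.

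**Figure D3:**
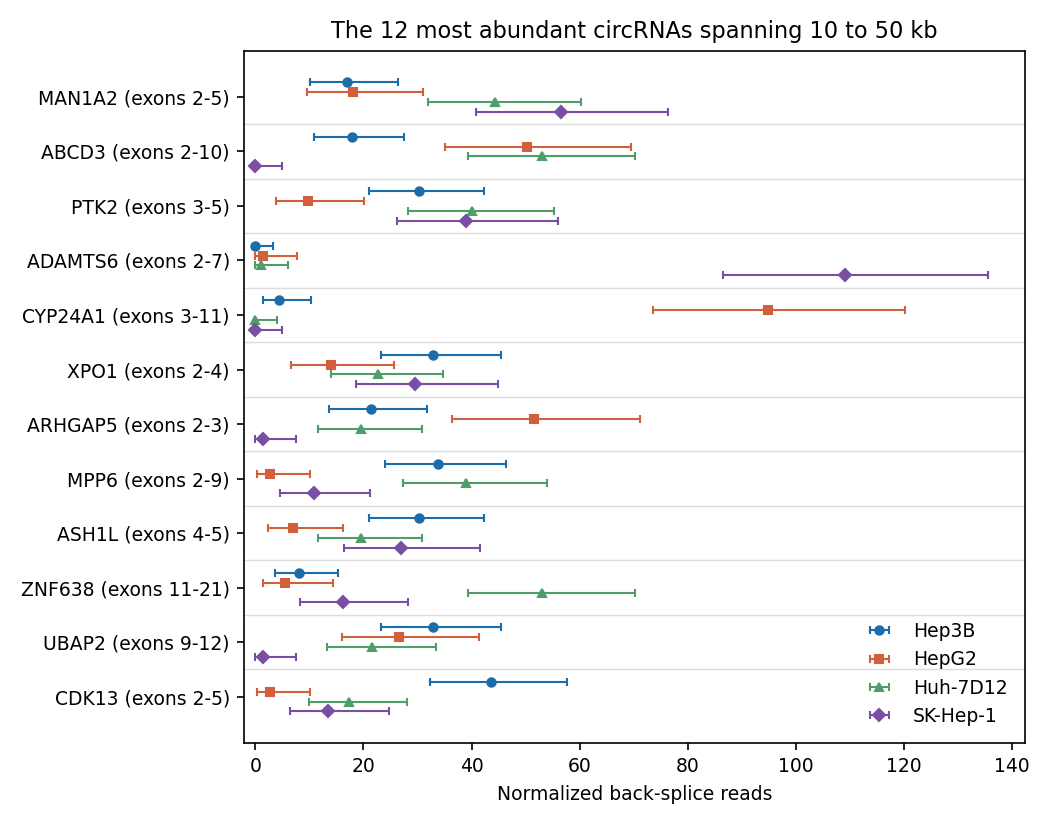
The 12 most abundant circRNAs spanning 10 to 50 kb. Points are normalized back-splice reads in each line (1 library each, linear axis) and bars are exact 95% Poisson intervals that cover counting error only. ADAMTS6 (81 reads in SK-Hep-1) and CYP24A1 (68 reads in HepG2) are nearly confined to 1 line. ABCD3, ARHGAP5 and UBAP2 have 0, 1 and 1 reads in SK-Hep-1, and the intervals of XPO1 overlap across all lines.

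Lines were then compared by size. A circRNA was said to stand higher if the log2 of its level exceeded that of the nearest of the other 3 lines by 2 or more, which is 4-fold, and lower for the reverse. Levels were normalized reads plus 1.21, and the highest level had to reach 6.07. Of the 3241 circRNAs, 288 (8.89%) reached that level, and 78 of them (27.1%) stood higher or lower in some line. The background over all 777 circRNAs of any span that reached it was 23.3%, and the share among other spans with 1 host gene was 20.8% (93 of 447). Of the 126 that reached it and were found in all 4 lines, 119 did not stand apart in any, beside 223 of 229 in other spans.

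In Hep3B, 3 circRNAs of the class stood higher and 3 lower (background 1.67% and 0.386% of the 777). In HepG2 the counts were 4 and 7 (1.8% and 1.03%). Huh-7D12 had 22 and 0 (6.44% and 0.386%). SK-Hep-1 had 29 and 10 (7.98% and 3.6%). As percentages of the 288 these were 1.04 and 1.04, 1.39 and 2.43, 7.64 and 0, and 10.1 and 3.47. All lines were compared over the same 4 libraries, so these counts are not independent of each other, and those near the background are no result about the class. Over the 288 circRNAs, the median log2 distance of each line from the mean of the others was 0.07, -0.89, 0.49 and -0.08, and over the 777 it was 0.07, -0.60, 0.36 and -0.26. With the values rescaled so that each library had the same back-splice total, which moved the libraries by -0.02, 0.38, -0.37 and 0.12 on the log2 scale, 2, 10, 9 and 54 stood higher in the 4 lines. The same scaling gave 0.597%, 2.99%, 2.69% and 16.1% of the circRNAs of the class at the entry level, beside 1.55%, 3.53%, 2.21% and 13.1% of circRNAs of any span.

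Counting error was large for most of these circRNAs. Where the other line had 0 reads, 3 reads were put in its place and the fold is a lower bound. The lower bound or the lower end of the interval reached 4-fold for 4 of the 29 circRNAs higher in SK-Hep-1, 2 of the 22 higher in Huh-7D12, 1 of the 4 higher in HepG2 and 1 of the 10 lower in SK-Hep-1. None of those called in Hep3B or lower in HepG2 reached it. Only ADAMTS6 in SK-Hep-1 and CYP24A1 in HepG2 reached it by the lower end of an interval, and the rest by the bound.

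In SK-Hep-1, the circRNAs with the largest distance after ADAMTS6 came from LPAR1, SMURF2, ARHGAP10 and SMYD3. LPAR1, a receptor for lysophosphatidic acid, gave an exon 2 to 4 loop with 31 reads in SK-Hep-1 and 0 in the others, at least 9.97-fold higher, and the gene was at 0.175, 0, 1.49 and 220. SMURF2, a ubiquitin ligase of TGF-beta signalling, gave a loop of exons 2 to 5 with 17 reads in SK-Hep-1 only (at least 5.47-fold) over gene levels of 37.9, 41.7, 13.7 and 714. ARHGAP10, also a GTPase-activating protein, had 15 reads (at least 4.83-fold) and SMYD3, a lysine methyltransferase, had 10 (at least 3.22-fold), each with 0 in the other lines. The host gene of each of these stood highest in SK-Hep-1 as well.

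Lower in SK-Hep-1, beside ABCD3, UBAP2 and ARHGAP5, stood the loop of ZBTB46, a zinc finger transcription factor. It had 16, 7, 10 and 0 reads (at least 2.42-fold) over gene levels of 19.4, 3.06, 5.99 and 0.475. The hosts of the other 6 were PARD3 and EPB41L5, proteins of cell polarity and the membrane skeleton, CDC14B, a phosphatase of the cell cycle, MTUS1, a microtubule-associated protein, FNDC3B and FAM169A. Each of these 6 loops had 0 reads in SK-Hep-1 and between 3 and 14 in every other line.

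In Huh-7D12, the loop with the largest distance came from LINC01608, a long noncoding RNA (chr8:111003414-111027433, minus strand), with 28 reads there and 0 elsewhere. It was at least 7.25-fold higher, and the gene was at 9.64 in Huh-7D12 and 0 in the other 3. CNTLN, a centrosomal protein, gave 16 reads in Huh-7D12 only (at least 4.14-fold), although the gene was highest in Hep3B (62.3, 10.5, 38.2 and 15.2). SUMF1, the enzyme that activates sulfatases, gave 2, 1, 23 and 0 reads, 14.0-fold (3.46 to 122) above Hep3B, while the gene was highest in Hep3B too (43.7, 12.4, 15.6 and 13.8).

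RLF, a zinc finger protein, had 11 reads and MLH3, a mismatch repair protein, had 8, both in Huh-7D12 only. Their bounds were 2.85-fold and 2.07-fold. The gene of RLF was at 29.5, 50.2, 62.7 and 40.8 and that of MLH3 at 23.3, 25.7, 17.2 and 25.7, with Huh-7D12 the lowest line for MLH3. No circRNA of the class stood lower in Huh-7D12.

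In Hep3B the circRNAs that stood apart had at most 12 reads in any library. Of those higher, DCAF6, a substrate receptor of a ubiquitin ligase, had 8 reads and MAP2K4, a kinase upstream of JNK and p38, had 7, with 0 in the other lines (at least 1.70-fold and 1.49-fold). FAM126A had 11, 1, 0 and 1 reads, 7.02-fold (1.02 to 302) above HepG2. Lower in Hep3B stood PHKB, a regulatory subunit of phosphorylase kinase in glycogen breakdown, with 0, 4, 7 and 7 reads (at least 2.09-fold), and HP1BP3, a heterochromatin protein, with 0, 3, 4 and 6 reads (at least 1.57-fold). The gene levels of these 5 hosts did not stand apart 4-fold in Hep3B.

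In HepG2, beside CYP24A1, the loops of SERGEF and of the gene AL137782.1 had 6 reads there and 0 elsewhere, each at least 2.07-fold higher. The loop of NFATC3, a transcription factor of calcium signalling, had 0, 6, 1 and 0 reads, and its fold of 7.73 had an interval from 0.937 to 355. Lower in HepG2 stood FAM208B with 14, 0, 11 and 6 reads (at least 1.93-fold) and DYRK1A, a dual-specificity kinase, with 10, 0, 20 and 5 (at least 1.61-fold).

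MAN1A2 gave more than 1 loop that begins at exon 2. The loop that ends at exon 4 had 2, 12, 10 and 8 reads and stood lower in Hep3B, 6.05-fold (1.21 to 58.5) under SK-Hep-1. The loop that ends at exon 5 was also lowest in Hep3B when normalized, but at 16.9 it lay close to the 18.1 of HepG2. The distance of Hep3B from its nearest line was thus wide for the shorter loop and within counting error for the longer one.

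The host genes were set beside the circRNAs that stood apart. Of the 58 that stood higher, the host gene stood 4-fold higher in the same line in 20 (34.5%, exact interval 22.5 to 48.1). In circRNAs of other spans it was 22 of 73 (30.1%). The interval, like the one for lower circRNAs below, takes circRNAs as independent. Some share a host, however: the 29 higher in SK-Hep-1 came from 24 hosts. By line the class had 18 of 29 in SK-Hep-1, 1 of 22 in Huh-7D12 (LINC01608), 1 of 4 in HepG2 (CYP24A1) and 0 of 3 in Hep3B, and the other spans had 16 of 31, 4 of 25, 0 of 8 and 2 of 9. Over all 15850 genes that reached a level of 1 in some line, 5.37% stood higher in SK-Hep-1, 1.52% in Huh-7D12, 1.46% in HepG2 and 0.808% in Hep3B. The host AF254983.1 of 1 circRNA in Huh-7D12 was not in the gene table and counts as not standing higher.

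For circRNAs that stood lower, the host gene stood 4-fold lower in 2 of 20 (10%, exact interval 1.23 to 31.7), beside 5 of 20 in other spans. These were BICC1, an RNA-binding protein, in HepG2 (loop 30, 1, 18 and 10 reads; gene 90.4, 13.6, 110 and 80.9) and MTUS1 in SK-Hep-1 (loop 6, 5, 6 and 0 reads; gene 75.4, 129, 68.8 and 14.0). The background of genes that stood lower was 0.448%, 1.15%, 0.536% and 3.31%. The median host difference in the direction of the loop was 2.52 (log2) for circRNAs higher in SK-Hep-1 and 0.32 for those higher in Huh-7D12. Whether the gene reads include reads of the loop itself is not given in the sources used here.

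Where host genes were required to have at least 100 reads in every line, 8 of 39 circRNAs that stood higher (20.5%) had a host that did so too. They were 8 of 18 in SK-Hep-1, with 0 of 17 in Huh-7D12. In circRNAs under 2 kb, from 2 to 10 kb and of 50 kb or more, it was 2 of 5, 1 of 6 and 0 of 6 in SK-Hep-1. For Huh-7D12 these classes had 0 of 2, 0 of 10 and 0 of 2. This requirement takes out hosts near 0 in some line, which can differ most, so a lower share is partly built in. Across the 287 circRNAs that reached the entry level and had a measured host, circRNA and host differences between lines had a Spearman rank correlation of 0.37 (Hep3B and HepG2) to 0.63 (HepG2 and SK-Hep-1). The 3 pairs with SK-Hep-1 had the highest values, from 0.61 to 0.63, and the others 0.37 to 0.43. In the 447 circRNAs of other spans the 6 values ran from 0.43 to 0.61. These are correlations across circRNAs that share hosts and libraries and are given as a description.

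**Figure D4:**
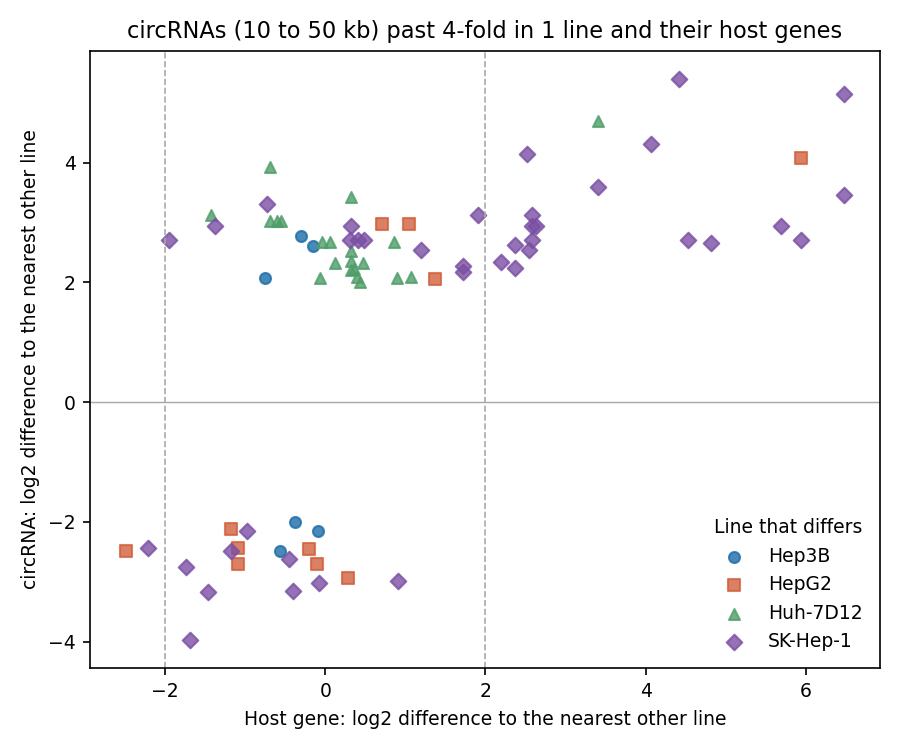
The circRNAs spanning 10 to 50 kb that stood higher or lower in 1 line, and their host genes. The vertical axis is the log2 difference of the circRNA to the nearest other line, the horizontal axis that of the host gene, colours give the line that differs and dashed lines mark 4-fold for the host. Of the 29 circRNAs higher in SK-Hep-1, 18 lie right of the 4-fold line, and of the 22 higher in Huh-7D12 1 does. The 29 came from 24 host genes, so some points share a host value.

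Host lists were then described by function. They contain many known circRNA hosts and were chosen with earlier results of these data known. How often they hold a circRNA here, also beside all genes, is therefore not independent of the choice of genes. Of expressed genes, 66.7% of chromatin and transcription regulators (36 of 54) had a circRNA of the class, as did 65.9% of ubiquitin ligases and deubiquitinases (29 of 44) and 58.3% of kinases and phosphatases (35 of 60). The shares were 56.5% of GTPase regulators and cytoskeletal genes, 54.2% of RNA-binding and decay genes, 64.2% of secretory and traffic genes, and 68.1% of genes of the nuclear pore, replication, repair and mitosis. Over all 13396 expressed protein-coding genes the share was 12.8%.

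Tissue genes were described in the same way. Of 73 expressed hepatocyte genes 6 did (8.22%), with 11 circRNAs and 72 reads, and of 73 expressed mesenchymal and matrix genes 9 did (12.3%), with 24 circRNAs and 147 reads. Neither share is far from the 12.8% of all expressed protein-coding genes at these numbers, and neither is a result about the list. The most abundant hepatocyte member came from PROX1, a transcription factor of liver development, with 19, 1, 16 and 0 reads over gene levels of 263, 107, 178 and 0.0528. In HepG2 the PROX1 gene was at a level of 107 with 1 loop read, and in SK-Hep-1 both were at or near 0. In the mesenchymal list, FNDC3B, a membrane protein, led with an exon 4 to 6 loop of 17, 4, 3 and 4 reads.

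Over the 288 circRNAs at the entry level 27.1% stood apart, and the function lists held 7 to 12 such circRNAs each, too few to set them against that share. None of the 111 circRNAs from chromatin and transcription regulators did, and none of the 107 from the nuclear pore, replication, repair and mitosis list, though only 8 and 9 of them reached the entry level. Among 87 from kinases and phosphatases (12 at the entry level), 1 stood higher in Hep3B (MAP2K4), 1 lower in HepG2 (DYRK1A) and 3 higher in SK-Hep-1, all from CDK17. Among 99 from GTPase regulators and cytoskeletal genes (12 at the entry level), 1 stood higher in Huh-7D12 (DENND4A), 2 higher in SK-Hep-1 (ARHGAP10 and ASAP1) and 1 lower there (ARHGAP5). The lists of ubiquitin enzymes, RNA-binding genes and traffic genes had 7, 11 and 10 at the entry level, of which CUL1 and EXOC6B stood higher in Huh-7D12, UPF2 higher in SK-Hep-1, and the short MAN1A2 loop lower in Hep3B.

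Across the 7 function lists, the median log2 distance of a line from the mean of the others ran from -1.01 (traffic) to 0.76 (ubiquitin enzymes) in Hep3B and from -1.40 (GTPase) to 0.41 (nuclear pore and repair) in HepG2. It ran from -0.07 (nuclear pore and repair) to 0.84 (RNA-binding) in Huh-7D12 and from -0.77 (ubiquitin enzymes) to 1.25 (traffic) in SK-Hep-1. The 288 gave 0.07, -0.89, 0.49 and -0.08. The mesenchymal list gave 1.21, -0.21, 0.24 and -1.73 over 5 circRNAs, of which 4 came from 1 gene, and the hepatocyte list 0.56, -1.10, 1.30 and -0.76 over 2. Most abundant among the ubiquitin enzymes was RNF169, a ligase of DNA damage signalling, with 6, 1, 7 and 15 reads, and SK-Hep-1 lay 14.5-fold (2.23 to 609) above HepG2. RBM39, a splicing cofactor, led the RNA-binding list with 15, 11, 26 and 5 reads, 4.18-fold (1.58 to 14.0) apart between Huh-7D12 and SK-Hep-1, while its gene was at 278, 478, 241 and 167. The medians rest on few loops, and 1 gene gave 3 of the 10 traffic circRNAs.

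The 3241 circRNAs came from 1772 host genes. Of these hosts 1059 (59.8%) gave 1 circRNA of the class, and 97 gave 5 or more, 637 in all. In 729 hosts (41.1%) every detected circRNA was of this span. A first exon start was shared with another circRNA of the class by 928 (28.6%) and a last exon end by 688 (21.2%). Among chromosomes other than Y, which had 2 detected circRNAs and none of this span, the share of circRNAs that are of this span ran from 16.8% of 167 on chromosome 19 to 56.8% of 199 on chromosome 13.

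The hosts with the most loops of this span were SMARCC1, a subunit of SWI/SNF chromatin remodellers, with 16; PPP6R3, a regulatory subunit of protein phosphatase 6, and PTK2 with 15 each; UBAP2 with 14; FNDC3B with 12; and XPO1 with 11. They followed different patterns. In XPO1, 8 of the 11 shared 1 start, and the exon 2 to 4 loop held 77.6% of 116 reads. In PTK2 the exon 3 to 5 loop held 49.3% of 217 reads, and in UBAP2 the exon 9 to 12 loop held 42.3% of 182. In SMARCC1, by contrast, 10 starts and 12 ends were combined into 16 loops with 58 reads, of which the most abundant had 9.

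SMARCC1 and PPP6R3 also differed between lines. SMARCC1 loops had 13, 2, 36 and 7 reads, and 14 of the 16 were seen in Huh-7D12 and 2 in HepG2. The gene was at 215, 179, 382 and 172, highest in Huh-7D12 as well. PPP6R3 loops had 25, 0, 11 and 7 reads over gene levels of 537, 134, 371 and 121, and none of its 15 was seen in HepG2. None of these loops of either host reached the entry level alone.

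In UBAP2, loops of the class had 90, 39, 33 and 20 reads in all. The exon 9 to 12 loop made up 37 of the 90 in Hep3B but 1 of the 20 in SK-Hep-1, where 7 of the host's loops were seen. FNDC3B loops had 58, 16, 31 and 6 reads over gene levels of 329, 398, 363 and 145. Loop reads summed over a host and the gene level were therefore not ordered alike in FNDC3B, where HepG2 had the highest gene level and 16 loop reads.

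Some loops of 1 host differed by a few bases at 1 end. There were 20 such pairs within 10 bases, and 18 of them shared the last exon end and differed where the first exon begins. The distance was 3 bases in 10 pairs and 4 bases in 3. In MPP6 the printed loop of exons 2 to 9 had 84 reads over all lines, and a loop with the same end and a start 3 bases upstream had 34 (15, 0, 14 and 5). In LARP4 the loop with the upstream start had 43 reads and the other 6, and in TEX10 the counts were 34 and 2. In DNAH14, 4 bases apart, they were 44 and 3. EPB41L5 shared the first exon start and had 19 and 25 reads for ends 4 bases apart, of which only the second was absent from SK-Hep-1 (6, 8, 3 and 2 against 8, 5, 12 and 0).

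The span limits cut a continuous range. Just inside the lower limit lay loops of PTPN9 and SPIDR, both with a span of 10004 bases and 4 and 3 reads in all, and just outside lay EXO1 (9987 bases) and NDC1 (9988 bases) with 2 each. Just inside the upper limit lay ASCC3 (49996 bases) and the pseudogene SUZ12P1 (49997 bases) with 2 reads each, and just outside ROBO1 (50002 bases) with 3 and NLK (50017 bases) with 11.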

How the data were processed

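Total RNA of 4 liver cancer lines was depleted of ribosomal RNA and sequenced from stranded libraries without poly(A) selection, per the labels' protocols. STAR 2.6.1d and the build hg38 are named in the submitters' processing notes. Which tool called circRNAs, which counted genes, whether strand was used, and how values were normalized: not given in the sources used here.

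Both tables hold deposited signal values, which are normalized reads. Each library's values were whole multiples of 1 factor (0.890, 1.39, 1.08 and 1.35), the same in the circRNA and the gene table, and dividing by it gave whole reads for 100% of the values within 0.001. Those reads are printed, and levels between lines use the deposited values. An empty circRNA value was taken as 0, and 4473 of 12473 circRNAs without a value in any line were left out. No column of per-sample values was left unused.

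Deposited circRNA positions are the bases next to the loop. Ends were matched to GENCODE 29 exons, taking the transcript that matched both ends, basic ones first, then the longest. Exons inside a loop were filled in from that transcript and were not observed in the reads. Junction sequences show 25 bases of each exon where all are coding and 15 otherwise.

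With 1 library per line, lines were compared by size: 4-fold to the nearest other line on log2(value + 1.21), with an entry level of 5 times that pseudocount (6.07), over the whole circRNA table. Gene levels were put on a per-million scale by 1 factor for all libraries, with a pseudocount of 1 and an entry level of 1 (15850 of 29670 genes). Intervals are exact Poisson for levels, exact binomial for read shares and folds, and Wilson for shares of circRNAs. Intervals and the floor of 3 reads cover counting error only, and bounds from the floor leave out the counting error of the higher line.

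The text names the 12 circRNAs of highest mean level, up to 5 higher and 2 lower per line by distance, the most abundant of each host list, the 6 hosts with most members, and 2 on each side of each span limit. Others are named where a count is 6 or fewer, or as pairs of near ends, and were picked after their values were seen. The members and lists were chosen with earlier results of these data known. Python 3.11.15, pandas 2.3.3, numpy 2.4.6, scipy 1.17.1 and matplotlib 3.10.9 were used.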

Additional observations from a re-analysis of the deposited data

Results flagged for a closer look

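Outside the comparisons stood 145 circRNAs that also spanned 10 to 50 kb but had no host gene (42) or several (103) in the deposited table. They held 761 back-splice reads (142 in SK-Hep-1, 229 in Huh-7D12, 119 in HepG2 and 271 in Hep3B), a signal in data that no comparison with 1 host gene uses. Groups of 1 library could not be examined for a library far from the others.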

How the results depend on the processing

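No paired analysis was possible because each line gave 1 library, and leaving out a replicate was not possible for the same reason. The search for inverted matches between flanking introns, with windows of either length, was not run, as no genome sequence was used here. No named circRNA changed sign. With equal back-splice totals, however, HepG2 had 10 circRNAs higher and 7 lower in place of 4 and 7, and more higher than Huh-7D12 (9), which had 22 before. The shares higher were 2.99% in HepG2 and 2.69% in Huh-7D12, beside 3.53% and 2.21% of circRNAs of any span. The share lower in HepG2 was 2.09%, beside 0.993%. The read share of the class was 36.3%, 29.7%, 38.0% and 40.1% of all circRNAs of the table, 37.5%, 29.004%, 38.8% and 40.1% without its 10 most abundant, and 29.5%, 24.0%, 31.3% and 33.3% with limits of 12 and 40 kb. Under 2 alternatives added after seeing the data, it was 41.6%, 33.8%, 42.2% and 43.9% without the 10 highest circRNAs of any span in each line, and 41.0%, 34.0%, 41.9% and 43.3% among circRNAs under 30 reads in all; HepG2 was lowest each time. With at least 2 reads in every line, 77 circRNAs were found in all 4.

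Counts of circRNAs standing apart depended on the pseudocount, since most had few reads. Percentages are of the circRNAs of the class that entered at each setting, beside those of any span. With 4 times the pseudocount, 0, 1, 3 and 4 stood higher (0%, 0.347%, 1.04% and 1.39%, beside 0.129%, 0.257%, 1.29% and 1.54%). At that setting 0 stood lower in Hep3B and in HepG2 (0% beside 0% in each), and 2 in SK-Hep-1 (0.694%, beside 0.257%). With 0.607 in place of 1.21, 6 stood lower in Hep3B (2.08%, beside 1.16%) and 19 in HepG2 (6.60%, beside 3.86%). At an entry level of 10 times the pseudocount, the counts higher were 0, 1, 6 and 9. As percentages these were 0%, 1.11%, 6.67% and 10%, beside 1.21%, 2.02%, 7.29% and 8.50%. At that entry level 1 stood lower in Hep3B (1.11%, beside 0.405%). With no entry level, 12, 15, 79 and 128 stood higher (0.370%, 0.463%, 2.44% and 3.95%, beside 0.5125%, 0.725%, 2.39% and 3.41%). With equal back-splice totals, 1 also stood lower in Hep3B (0.299%, beside 0.110%) and 54 higher in SK-Hep-1 (16.1%, beside 13.1%). Scaled by gene reads outside mitochondrial genes, 7 stood higher in Hep3B (2.27%, beside 2.66%). Without SK-Hep-1, 5 stood higher in Hep3B (2.27%, beside 2.94%), 20 lower in HepG2 (9.09%, beside 7.03%) and 3 lower in Huh-7D12 (1.36%, beside 1.96%). Among circRNAs whose hosts had at least 100 reads in every line, 20.5% of those higher had a host that was higher too. That limit itself takes out hosts near 0 in some line. Of 25 named circRNAs that stood apart, 15 lost the call with 4 times the pseudocount, 10 at the higher entry level and 2 with equal totals. Without SK-Hep-1, of those called in the other lines 15 kept the call and 1 lost it.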
